A study of Mus musculus with 12 samples.

Results

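Arntl, Clock and Npas2 encode the activators of the circadian clock, and their transcripts were followed over the day in mouse dorsal root ganglia (DRG), which house the cell bodies of the sensory neurons of the trunk and limbs. The genes were chosen by symbol, through the Ensembl IDs of the deposited gene table, and all 3 were found among its 38594 rows with an Ensembl ID. The 12 libraries came from lumbar ganglia (L1 to L6) of C57BL/6J males, 6 to 12 weeks old and labelled as naive. The groups were ZT2, ZT8, ZT14 and ZT20 with 3 libraries each, where ZT (zeitgeber time) is the hour after lights on. The labels name no allele or agent for any group, so the times are compared with each other. Separate animals per library are not stated in the labels, so that p-values measure the spread among these libraries alone, and that spread may be technical. Library numbers in the labels follow the order of the times, so time of day and any batch of collection or preparation cannot be told apart. In bulk ganglia, fewer cells of a type and less RNA per cell cannot be told apart either.

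Arntl encodes BMAL1, which pairs with CLOCK or with its relative NPAS2 to bind E-box sequences and switch on the Period and Cryptochrome genes, the REV-ERB genes Nr1d1 and Nr1d2, and output factors such as Dbp. PER and CRY proteins then inhibit the activators, while the REV-ERB proteins repress Arntl and the related ROR proteins activate it through ROR elements in its promoter. In many mouse tissues the Arntl transcript cycles in antiphase to the Period genes, and NPAS2 can stand in for CLOCK.

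The letters of such elements at the start of Arntl are shown because Arntl was the member that changed with the time of day, and the Clock window is set beside them. The sequences come from RefSeq promoter windows of build GRCm38.p6, each running from 250 bases before to 50 bases after a start site. Each line below gives 30 bases 5′ to 3′ on the strand of its gene, with the searched word in capitals.
Arntl, chr7:113207494-113207523, plus strand: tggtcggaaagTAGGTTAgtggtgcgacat
Arntl, chr7:113207530-113207559, plus strand: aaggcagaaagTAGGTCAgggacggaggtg
Clock, chr5:76303604-76303633, minus strand: agctttggcctcTGACCTgacagatgacag
The capitals mark TAGGTNA, an ROR element core with 1 free base, in both Arntl lines. In the Clock line they mark AGGTCA, the shorter core shared by ROR and REV-ERB sites, which lies on the strand opposite to the gene and so reads TGACCT. Counted from the RefSeq start at 113207511, the first Arntl word began at -6 and the second at 30, and the words lay 36 bases apart from start to start. Within the GENCODE M21 gene, they fell in an untranslated exon of 1 and of 2 of its 6 transcripts, beginning 40 and 76 bases after the gene's first base. The Clock word began at -119 from its RefSeq start at 76303502. Both strands were searched, and a match of the longer word whose free base is C also holds the shorter one. The word TAGGTNA was in 2 of 2 windows of Arntl, in 0 of 3 of Clock and in 0 of 1 of Npas2, and in 8.29% of all 32851 windows. The windows of Arntl, from starts at 113207465 and 113207511, overlap, and the word at 113207505 was counted in both. The shorter AGGTCA was in 1 of 2 windows of Arntl, 1 of 3 of Clock and 0 of 1 of Npas2, and in 16.3% of all windows. The E-box CACGTG, held by 7.15% of windows, and the D-box core TTANNTAA, held by 6% of windows, were in no window of the 3 genes. The longer word was chosen after the Arntl window had been seen, and a match describes letters, not a bound site.

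In GENCODE M21 (GRCm38), Arntl (ENSMUSG00000055116.8) lies on the plus strand of chr7:113207465-113314126, Clock (ENSMUSG00000029238.11) on the minus strand of chr5:76209868-76304792 with 6 annotated transcripts, and Npas2 (ENSMUSG00000026077.15) on the plus strand of chr1:39193731-39363236 with 3. Levels are given as CPM, normalized counts scaled to a library total of 1000000. The deposited values behave as coverage per base, in that genes of different lengths shared a modal value in each library. These CPM are therefore taken as already per length, and comparisons of levels between genes rest on that reading. An antisense gene, Gm45355, shares 33 exon bases with Arntl, and its value summed over libraries was 0.421% of that of Arntl. The sources used here do not say if the counting used strand. Taken as coverage, the values gave a mean of 12.7 to 50.4 reads per base for Arntl, 85.1 to 130 for Clock and 15.2 to 25.3 for Npas2. In units of 1000000, the libraries held about 24 to 33.5 read pairs, numbers approximated from the coverage.

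Arntl was high around the end of the night and the start of the day and low from the middle of the day into the early night. It had 6.40, 6.05 and 6.27 CPM at ZT2, 2.90, 2.43 and 3.14 CPM at ZT8, 2.52, 2.58 and 2.80 CPM at ZT14, and 6.75, 5.54 and 6.88 CPM at ZT20. The 6 libraries of ZT2 and ZT20 were all above the 6 of ZT8 and ZT14, with no value between 3.14 and 5.54 CPM. The means were 6.24 ± 0.178 CPM at ZT2, 2.83 ± 0.36 CPM at ZT8, 2.63 ± 0.144 CPM at ZT14 and 6.39 ± 0.741 CPM at ZT20 (SD, n = 3 each).

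A 24-h cosine fitted to the 4 times gave Arntl an amplitude of 0.86 ± 0.06 on the log2 scale (SE), the log2 distance from mean to peak, which amounts to a 3.28-fold difference between peak and trough. The peak fell at ZT 23.1 ± 0.25 h, an estimate from 4 points spaced 6 h apart. The adjusted p of this 24-h component was 0.000399 in edgeR's quasi-likelihood test with Benjamini-Hochberg adjustment over the 25809 genes tested, and Arntl had the second lowest unadjusted p of them (rank 2). By size of the amplitude Arntl was at rank 1483, and the median amplitude was 0.1 over all genes tested and 0.08 over the genes at about its level. Of the 3 activators Arntl passed and Clock and Npas2 did not, in edgeR as in limma-trend and DESeq2. In edgeR, 0.0659% of all genes tested passed (17 genes), beside 17 genes in limma-trend and 163 in DESeq2. Any difference between the times was called for Arntl at an adjusted p of 0.0011, where 0.0504% of genes were called. The alternation that remains, ZT2 with ZT14 against ZT8 with ZT20, was -0.07 ± 0.08 (log2, SE) with an adjusted p of 0.897 in edgeR. On this alternation edgeR called 0 genes (0%), limma-trend 0 and DESeq2 114, and 7.44% of genes had an unadjusted edgeR p under 0.05.

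Arntl had 1 low phase, at ZT8 and ZT14, and 1 high phase, at ZT20 and ZT2, and times within a phase differed by less than their error. At ZT14 Arntl was 0.422-fold of its ZT2 level (95% interval 0.356 to 0.501, edgeR adjusted p = 0.00186), where 0.0465% of genes were called. At ZT8 it was lower than at ZT2 by a log2 difference of -1.14 ± 0.11 (SE, edgeR adjusted p = 0.0066; 0.0194% of genes called).
The return during the night was of like size. At ZT20 Arntl was 2.43-fold of ZT14, a log2 difference of 1.28 ± 0.11 (SE, edgeR adjusted p = 0.0021; 0.0426% of genes called), and 2.26-fold of ZT8, a log2 difference of 1.18 ± 0.11 (adjusted p = 0.00843; 0.0232% of genes called). For ZT14 against ZT8 the log2 difference was -0.1 with an interval of -0.35 to 0.14, a contrast in which edgeR called 0 genes (0%), limma-trend 0 and DESeq2 105, and 6.3% had an unadjusted edgeR p under 0.05. For ZT2 against ZT20 the log2 difference was -0.03 with an interval of -0.27 to 0.21, and 0.00387% of genes were called. The ranges of Arntl did not overlap in 4 of the 6 pairs of times, the pairs that were called. Over all genes the ranges of a pair did not overlap for 11.2% (ZT14 and ZT2), 9.9% (ZT20 and ZT8), 11.7% (ZT8 and ZT2), 11.3% (ZT14 and ZT8), 11.4% (ZT20 and ZT14) and 14.8% (ZT2 and ZT20).

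**Figure D1:**
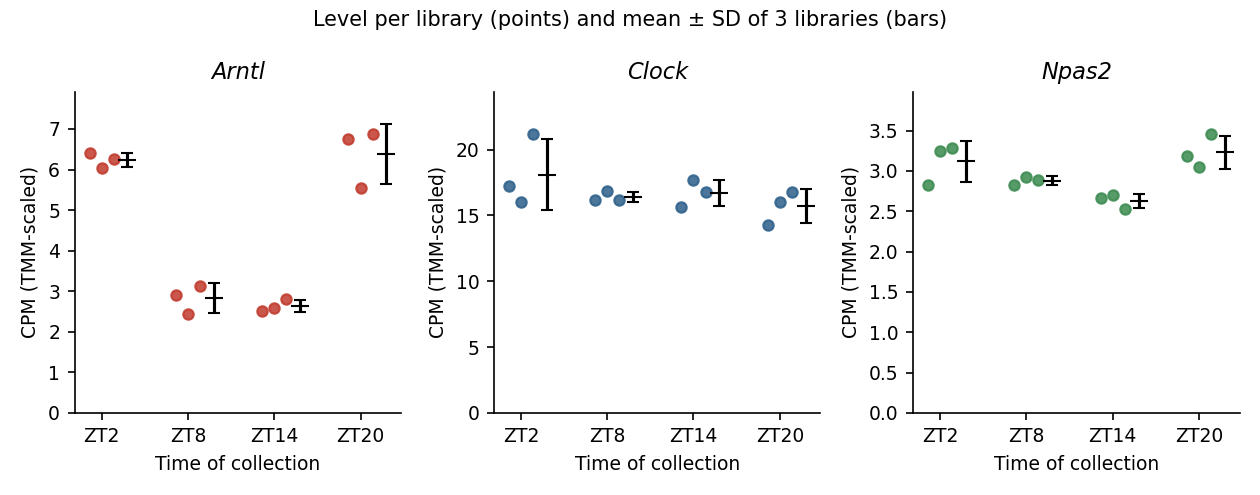
Normalized level in CPM (vertical axes, from 0) of Arntl, Clock and Npas2 at ZT2, ZT8, ZT14 and ZT20 (horizontal axes); points are the 3 libraries of a time and the black bar beside them the mean with its SD. Arntl has 6.24 and 6.39 CPM at ZT2 and ZT20 against 2.83 and 2.63 CPM at ZT8 and ZT14, while the means of Clock lie between 15.7 and 18.1 CPM and those of Npas2 between 2.63 and 3.23 CPM.

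Transcripts of skeletal muscle, which borders the ganglia, were found in every library. The summed level of 11 muscle markers was 88.6 to 411.2 CPM at ZT2, 95.4 to 415.8 CPM at ZT8, 149.4 to 491.8 CPM at ZT14 and 30.2 to 1071.2 CPM at ZT20, so the ranges of all times overlapped. Without the muscle-richest library of each time (ZT2 replicate 2, ZT8 replicate 3, ZT14 replicate 1 and ZT20 replicate 1) the amplitude of Arntl was 0.87 ± 0.07, and its adjusted p was 0.0752 in edgeR with 8 libraries (unadjusted p 2.01e-05). Without those libraries the log2 difference of Arntl was -1.24 for ZT14 against ZT2 (adjusted p = 0.142), -1.25 for ZT8 against ZT2 (0.0838), 1.21 for ZT20 against ZT14 (0.135) and 1.22 for ZT20 against ZT8 (0.152), so none of these passed, all in the direction seen with 12 libraries. Leaving out 1 library at a time kept the 24-h call of Arntl in all 12 cases. The call of ZT20 against ZT8 was lost without ZT20 replicate 3 (log2 1.11, edgeR adjusted p = 0.0756), and that of ZT8 against ZT2 without ZT2 replicate 1 (-1.13, 0.0511).
Sensory neuron markers summed to 14706 to 15000.6 CPM at ZT2, 14609.1 to 15239.4 CPM at ZT8, 14553.4 to 15625.7 CPM at ZT14 and 14903.7 to 15288.6 CPM at ZT20, with the neuronal tubulin Tubb3 at 3475.6 to 3789.3 CPM over the libraries. Erythroid markers summed to 1145.3 to 2596.4 CPM at ZT2, 1485.9 to 1575.3 CPM at ZT8, 2466.3 to 2721.9 CPM at ZT14 and 510.9 to 824.9 CPM at ZT20. The erythroid sum was thus lowest at ZT20 and, apart from 1 library of ZT2, highest at ZT14. Of 4 erythroid markers, 0 passed the 24-h test in edgeR, 3 had an unadjusted p under 0.05 and 1 was called for any difference. Over all genes tested, 0.0659% passed the 24-h test, 5.2% had such a p and 0.0504% were called for any difference. Schwann cell markers summed to 6600.5 to 7265.4 CPM at ZT2, 5932.7 to 7594.2 CPM at ZT8, 7083.8 to 7182.7 CPM at ZT14 and 7250.4 to 8426.1 CPM at ZT20, with 0 of 6 markers passing the 24-h test and 3 of 6 at an unadjusted edgeR p under 0.05. Endothelial markers summed to 64.9 to 70.6 CPM at ZT2, 58.8 to 69.6 CPM at ZT8, 64.3 to 73.1 CPM at ZT14 and 70.2 to 78.4 CPM at ZT20, with 0 of 5 passing and 1 of 5 at an unadjusted p under 0.05. Schwann markers at ZT20 thus stood clear of ZT14, and endothelial markers at ZT20 of ZT8. The part of these cell types in the levels of the activators was not tested.

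Clock, which encodes the histone acetyltransferase that pairs with BMAL1, was the most abundant of the 3 and showed no difference between times that passed the test. It had 17.21, 15.99 and 21.19 CPM at ZT2, 16.14, 16.85 and 16.20 CPM at ZT8, 15.63, 17.65 and 16.75 CPM at ZT14, and 14.23, 16.03 and 16.76 CPM at ZT20. All 6 pairs of times overlapped, and the highest and the lowest library, 21.19 and 14.23 CPM, stood in the neighbouring times ZT2 and ZT20. Its 24-h amplitude was 0.07 ± 0.05 (log2, SE; unadjusted p 0.405, edgeR adjusted p = 0.999), at rank 15588 of the 25809 genes by amplitude, where the median of genes at about its level was 0.05. The largest of its contrasts was ZT2 against ZT20, a log2 difference of 0.21 (edgeR unadjusted p 0.0541, adjusted p = 0.706), which was 0.08 without ZT2 replicate 3 and lay between 0.08 and 0.3 over the libraries left out in turn. The 95% intervals of its 6 contrasts ran from -0.36 to 0.42 in all. A change of the size seen for Arntl lay outside them, and changes within these bounds were not excluded.

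Npas2, the relative that can take the place of CLOCK, was the scarcest of the 3 on average and varied little. It had 2.82, 3.25 and 3.28 CPM at ZT2, 2.82, 2.93 and 2.89 CPM at ZT8, 2.66, 2.70 and 2.53 CPM at ZT14, and 3.19, 3.05 and 3.46 CPM at ZT20. The 3 libraries of ZT14 were the lowest of the 12. The range of ZT14 overlapped that of no other time, and ZT20 also stood clear of ZT8, so that 4 of 6 pairs did not overlap. Over all genes, 11.2%, 11.3% and 11.4% did not overlap between ZT14 and ZT2, ZT8 and ZT20, and 9.9% between ZT20 and ZT8. Of the 6 contrasts of Npas2, edgeR called 0.
The amplitude of Npas2 was 0.15 ± 0.05 (log2, SE), a 1.23-fold difference between peak and trough, with the peak estimated at ZT 23.7 ± 1.17 h. The 24-h test gave it an unadjusted p of 0.0243 and an edgeR adjusted p of 0.851, at rank 737 by unadjusted p among the 25809 genes, of which 5.2% had an unadjusted p under 0.05. The largest contrast was ZT20 against ZT14 with a log2 difference of 0.3 and an interval of 0.1 to 0.5 (edgeR unadjusted p 0.00739, adjusted p = 0.651), where 6.28% of genes had an unadjusted p under 0.05. ZT14 against ZT2 gave -0.25 with an interval of -0.45 to -0.04 (edgeR unadjusted p 0.021, adjusted p = 0.882), where 5.19% of genes did. Npas2 therefore failed the correction over all genes, and a change as large as that of Arntl lay outside the intervals of its contrasts, which ran from -0.45 to 0.5 in all.

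**Figure D2:**
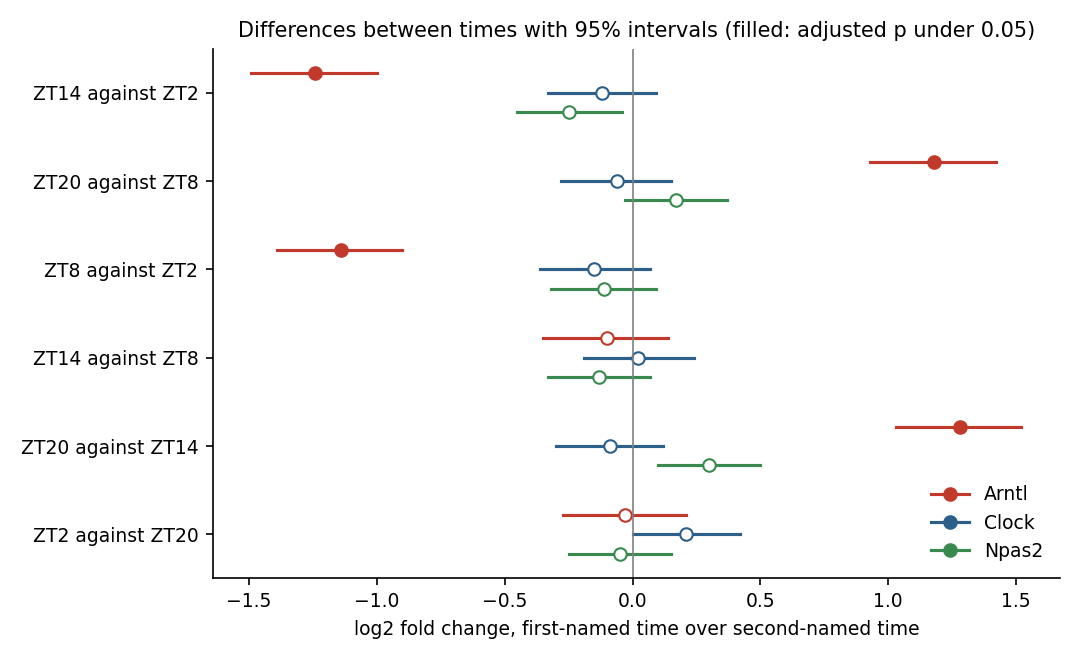
Log2 difference, first-named over second-named time, in the 6 contrasts between times for Arntl, Clock and Npas2, so that ZT2 against ZT20 is ZT2 over ZT20. Points are the edgeR estimates and bars the 95% intervals, with points filled where the adjusted p is under 0.05. The intervals of Arntl exclude 0 in 4 contrasts, with estimates from -1.24 to 1.28. Those of Clock stay between -0.36 and 0.42 and all include 0. Those of Npas2 stay between -0.45 and 0.5, and exclude 0 for ZT20 against ZT14 and for ZT14 against ZT2, which did not pass the adjustment.

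The order of the levels depended on the time of day in a single place. Clock was above Npas2 in all 12 libraries, by 4.46-fold to 6.62-fold, and Arntl was below Clock in all 12, at 0.144 to 0.474 of its level. Averaged over the libraries, Clock had 16.7 CPM, Arntl 4.52 CPM and Npas2 2.96 CPM, which put them at the 70.3, 52.9 and 48.3 percentiles of the genes tested. Arntl was above Npas2 in 9 of 12 libraries. At ZT2 and ZT20 Arntl stood at 1.87 to 2.27 and 1.82 to 2.12 of the Npas2 level, whereas at ZT8 and ZT14 it stood at 0.83 to 1.09 and 0.948 to 1.1, so those neighbours did not differ beyond their spread.

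Because the activators work as pairs, the ratio of their transcripts within a library was tested against time, which needs no normalization between libraries. The test was an exact permutation test over the 369600 assignments of the libraries to the times, for 3 pairs, with a smallest possible p of 6.49e-05. In the order ZT2, ZT8, ZT14 and ZT20, the log2 ratio of Arntl over Clock averaged -1.53 ± 0.2, -2.54 ± 0.22, -2.66 ± 0.1 and -1.3 ± 0.23 (SD, n = 3 each). This ratio differed with time (exact p = 0.00221, adjusted over the 3 pairs 0.00662), so the course of Arntl differed from that of Clock.
In the same order, the log2 ratio of Arntl over Npas2 averaged 1.01 ± 0.16, -0.03 ± 0.21, 0 ± 0.12 and 0.98 ± 0.11 (exact permutation p = 0.00604, adjusted 0.00906). The amplitudes of these ratios were 0.84 and 0.72. The log2 ratio of Npas2 over Clock averaged -2.54 ± 0.21, -2.51 ± 0.02, -2.66 ± 0.09 and -2.28 ± 0.12, with an amplitude of 0.13. Its exact permutation p of 0.0457 (adjusted 0.0457) lay next to the threshold, and leaving out 1 library at a time moved the adjusted p between 0.00468 and 0.132 and lost the call in 9 of 12 cases. Without the muscle-richest library of each time, both Arntl ratios had an adjusted exact p of 0.0667 and amplitudes of 0.82 and 0.73.

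**Figure D3:**
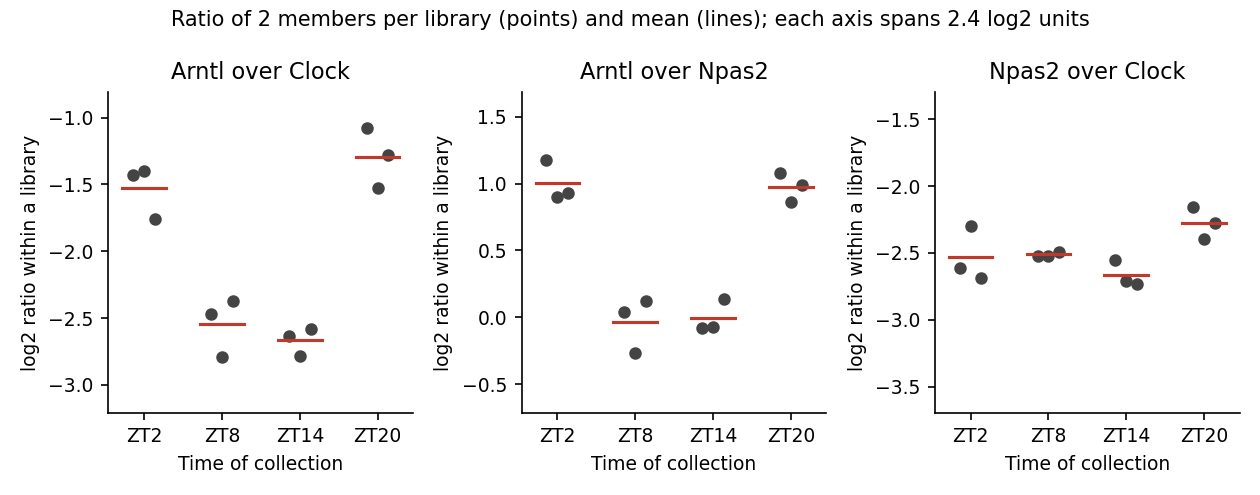
Log2 ratio within each library (vertical axes) of Arntl over Clock, Arntl over Npas2 and Npas2 over Clock at the 4 zeitgeber times; points are libraries and lines the mean of a time, and each axis covers the same span. The Arntl over Clock mean is -1.53 and -1.3 at ZT2 and ZT20 against -2.54 and -2.66 at ZT8 and ZT14, while the Npas2 over Clock mean stays between -2.66 and -2.28.

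Across the 12 libraries, log2 CPM of Arntl and Npas2 had a Pearson r of 0.787, Arntl and Clock 0.061, and Npas2 and Clock 0.105. These values describe libraries that share times and preparation, and are given without a p. Among the 16259 genes with a mean of 1 CPM or more, the courses most like Arntl were those of Fzd8, a Wnt receptor (r 0.951), Casp2, a caspase (0.939), Fabp7, a lipid-binding protein of glia (0.91), Trp53i11 (0.892) and Rbm4, an RNA-binding protein (0.883). The most opposite were Per3 (-0.949) and Tef (-0.918), followed by Iqgap2 (-0.896), Dbp (-0.891) and AC134576.3 (-0.888). Per3, Tef and Dbp belong to the clock itself, the first as a Period gene and the others as output factors. Of the genes named here for Arntl, Fabp7 passed the 24-h test in edgeR (adjusted p = 6.44e-05), as did Per3, Tef and Dbp. Fzd8 (edgeR adjusted p 0.18), Casp2 (0.448), Trp53i11 (0.216), Rbm4 (0.136), Iqgap2 (0.547) and AC134576.3 (0.518) did not pass.
For Npas2 the genes most alike included Dpf1 (r 0.892), Terf2ip, which encodes a telomere protein (0.865), Gm10125 (0.86) and Adat1 (0.854). The most opposite to Npas2 was the Period gene Per2 (-0.882), ahead of Spag6 (-0.874), Slc25a33 (-0.851), Lrg1 (-0.85) and Mtfmt (-0.847). Per2 passed the 24-h test in edgeR (adjusted p = 0.013), and the other genes named for Npas2 did not (edgeR adjusted p 0.584 to 0.982). For Clock the genes most alike were Bicral (0.932), Mynn (0.917), Snrnp70, part of the spliceosome (0.901), Tmem181b-ps (0.893) and Srcin1 (0.893). The most opposite to Clock were Lrrc49 (-0.932), Suclg1 (-0.913), Mrpl10 (-0.897), 4430402I18Rik (-0.892) and Gm41077 (-0.883). No gene of the clock lists was among the 10 named for Clock. These 10 had 24-h amplitudes of 0.03 to 0.12 (log2), and all failed the 24-h test in edgeR (adjusted p of 0.996 or more). The r values named here are the extremes among 16259 genes over 12 libraries, and no likeness in time of day was tested.

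Genes that the activators drive and that repress them in turn had their peaks in the opposite part of the day to Arntl, among those that passed the test in edgeR. Of 9 repressors of the activators tested, 3 passed the 24-h test in edgeR, against 0.0659% of all genes, and the median amplitude of the 9 was 0.21, beside 0.1 over all genes tested. Per2 had 4.5, 5.47, 8.3 and 3.8 CPM on average at ZT2, ZT8, ZT14 and ZT20, with an amplitude of 0.51 ± 0.05 and a peak at ZT 12 (edgeR adjusted p = 0.013). Per3, with 5.46, 8.55, 8.72 and 4.9 CPM, peaked at ZT 10.7 (amplitude 0.53 ± 0.05, adjusted p = 0.0106), and Ciart, which encodes a repressor of CLOCK and BMAL1, had 4.31, 9.18, 6.89 and 3.63 CPM and peaked at ZT 9.8 (0.75 ± 0.08, 0.0106). DESeq2 called 5 of the 9, adding Bhlhe40, with a peak at ZT 10.9, and Cry1, with a later peak at ZT 16.6. It was the less strict tool here, with 163 genes called on this test over all genes, beside 17 in edgeR. Log2 CPM of Cry1 and Arntl had a Pearson r of -0.111 over the 12 libraries. These lists were chosen with earlier results of these data known and are given as descriptions.

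Both REV-ERB genes passed the 24-h test in edgeR. Their products are known from other work as repressors of Arntl through ROR elements, and binding at the letters shown above was not tested. Nr1d1 averaged 27, 48.5, 26.6 and 13.3 CPM at ZT2, ZT8, ZT14 and ZT20, with an amplitude of 0.93 ± 0.09 and a peak at ZT 8 (edgeR adjusted p = 0.0128). Nr1d2 averaged 24.6, 31.3, 29.5 and 19.3 CPM and peaked at ZT 9.4 (amplitude 0.37 ± 0.04, edgeR adjusted p = 0.00964). At ZT8, Arntl was low while Nr1d1 was at its highest, and at ZT20 the reverse held. At ZT2 and ZT14 Nr1d1 had close means, 27 and 26.6 CPM, whereas Arntl had 6.24 CPM at ZT2 and 2.63 CPM at ZT14. These are transcript levels set side by side, and an effect of the REV-ERB genes on Arntl was not tested.

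Of 4 genes whose products act on D-boxes, the PAR bZIP activators Dbp, Tef and Hlf and the repressor Nfil3, Dbp and Tef passed in edgeR, where 0.0659% of all genes did. DESeq2 called 3 of the 4, adding Hlf, and all 4 for any difference between the times. Over all genes, DESeq2 called 163 on the 24-h test and 297 for any difference, beside 17 and 13 in edgeR. Hlf averaged 3.85, 5.23, 5.45 and 3.92 CPM at ZT2, ZT8, ZT14 and ZT20, with an amplitude of 0.33 ± 0.06 (unadjusted p 0.000402, edgeR adjusted p = 0.244). Dbp averaged 11.6, 32.1, 24 and 8.26 CPM at ZT2, ZT8, ZT14 and ZT20, with an amplitude of 1.11 ± 0.12 and a peak at ZT 9.9 (edgeR adjusted p = 0.0203). Tef had an amplitude of 0.2 ± 0.02 and a peak at ZT 10.8 (edgeR adjusted p = 0.0366). Nfil3 did not pass (unadjusted p 0.00769, edgeR adjusted p = 0.692). It averaged 8.93, 6.64, 7.85 and 7.72 CPM at ZT2, ZT8, ZT14 and ZT20, so that, unlike Arntl, it was not high at ZT20, and a 24-h cosine (amplitude 0.14 ± 0.04) describes its course poorly. Its 12-h alternation, a log2 difference of 0.23 ± 0.05 (SE), had a lower unadjusted p of 0.00102 (edgeR adjusted p = 0.34).
Leaving out 1 library at a time ended several of these calls in edgeR while the fitted amplitudes stayed close. The amplitude of Per2 lay between 0.48 and 0.55 over the 12 cases, and its adjusted p was up to 0.0838 without ZT2 replicate 1 or 2, ZT14 replicate 2 or 3, or ZT20 replicate 3. Nr1d1 lost its call when any 1 library of ZT20 was left out (adjusted p up to 0.103, amplitude 0.85 to 0.97), Ciart without ZT20 replicate 2 or 3 (up to 0.0505, amplitude 0.71 to 0.78) and Nr1d2 without ZT20 replicate 3 (0.0694, amplitude 0.35 to 0.42). Dbp lost its call without ZT2 replicate 1 or any 1 library of ZT8 or ZT20 (up to 0.121, amplitude 1.05 to 1.16), and Tef lost it whichever of the 12 libraries was left out (0.0601 to 0.149, amplitude 0.18 to 0.21). Per3 kept its call in all 12 cases of a left-out library. With the 8 libraries that remain without the muscle-richest of each time, the amplitudes of Per2, Per3, Nr1d2 and Tef were 0.49, 0.52, 0.37 and 0.18, and none of these passed (edgeR adjusted p 0.158, 0.144, 0.106 and 0.157).

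**Figure D4:**
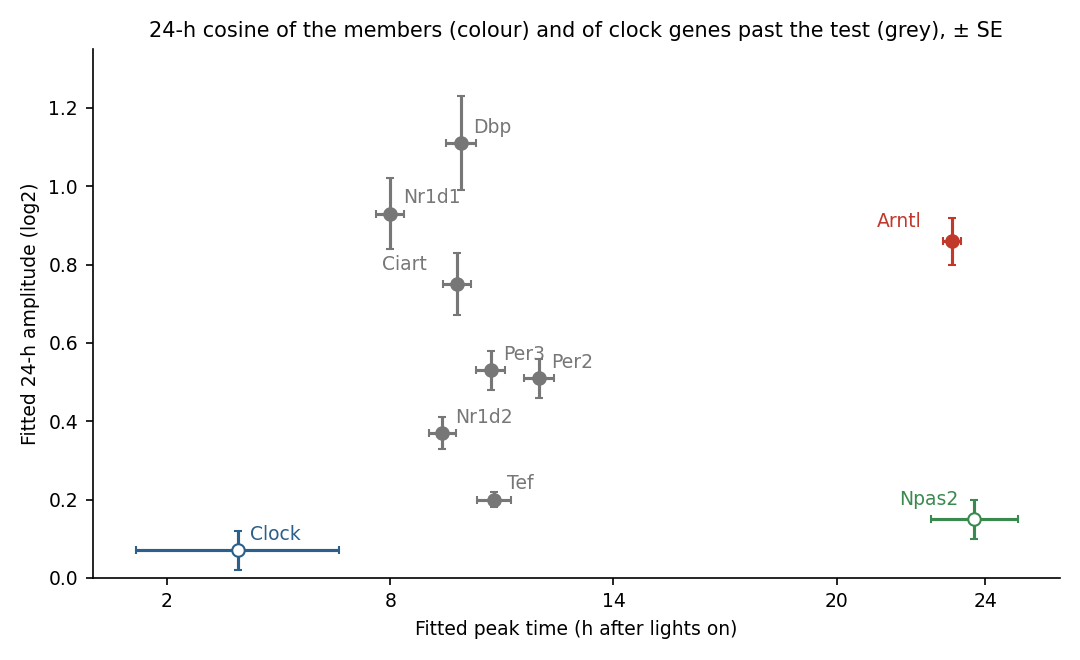
Amplitude on the log2 scale (vertical axis) against estimated peak time in hours after lights on (horizontal axis), both with SE bars, for the 3 activators in colour and the clock genes past the 24-h test in grey; filled points passed the test in edgeR and open points did not. Arntl lies at ZT 23.1 with an amplitude of 0.86, and the repressors, REV-ERB genes, Dbp and Tef past the test lie between ZT 8 and ZT 12.

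The relatives and the cofactors of the activators gave counts near those of all genes, of which 0.0659% passed the 24-h test in edgeR and 5.2% had an unadjusted p under 0.05. Arntl2, the paralog of Arntl, averaged 5.48 ± 0.175 CPM at ZT2, 5.04 ± 0.31 CPM at ZT8, 5.55 ± 0.509 CPM at ZT14 and 5.34 ± 0.538 CPM at ZT20 (SD, n = 3 each). The fitted amplitude of Arntl2 was 0.04 ± 0.05 (unadjusted p 0.668, edgeR adjusted p = 1). Arntl2 therefore stood above Arntl at ZT8 and ZT14 and below it at ZT2 and ZT20 by the means. Of the 14 other bHLH-PAS genes tested, Arntl2 among them, 0 passed in edgeR, 0 in limma-trend and 0 in DESeq2, and 0 had an unadjusted edgeR p under 0.05. The lowest p-values among them were those of Hif3a (0.0565, amplitude 0.68 ± 0.25) and Npas1 (0.0968, 0.2 ± 0.08), a neuronal relative of Npas2. Of 12 cofactors of CLOCK and BMAL1, 0 passed in any of the 3 tools, and 1 had an unadjusted edgeR p under 0.05. That 1 was Kat2b, an acetyltransferase (unadjusted p 0.015, edgeR adjusted p = 0.797, amplitude 0.09 ± 0.03), followed by Ep300, another acetyltransferase (0.0858, adjusted 0.982, 0.18 ± 0.07). The median amplitudes were 0.07 in the bHLH-PAS list and 0.04 in the cofactor list, beside 0.056 over the 16260 tested genes with a mean of 1 CPM or more and 0.1 over all genes tested. Arntl2 and Nfil3 were named after their values had been seen.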

How the data were processed

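RNA of lumbar ganglia was sequenced as mRNA libraries in paired reads of 150 bases, per the labels' protocols. HISAT2 2.2.1 and StringTie 2.1.5 with build GRCm38.p6 were used, per the submitters' processing notes; the sources used here do not give the step that made the table. The deposited values are estimated counts per gene, not whole. In each library a modal value of 16.4 to 17.24 was shared by genes of different lengths, as a coverage of 1 would be. The totals (89.8 to 125 per library in units of 1000000) were therefore not taken as reads.

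Values were rounded and tested with edgeR 4.0.16 in R 4.3.3 (quasi-likelihood, robust, TMM, filterByExpr, 4 times, no covariate) over 25809 genes, and adjusted by Benjamini-Hochberg with a threshold of 0.05. Normalization factors lay between 0.97 and 1.02. A 24-h pair, any difference, the 12-h alternation and 6 contrasts came from this fit. Amplitude SEs are by the delta method. The 348 assembled loci were left out. Symbols came from GENCODE M21 (38462 of the 38594 IDs matched). Ratios used unrounded values (Python 3.11.15, scipy 1.17.1). The fit was tested on simulated counts with a 24-h cosine planted in 50 genes per amplitude. It recovered 58% of them at an amplitude of 0.25, 80% at 0.5, 98% at 0.75 and 100% at 1. Of 175 genes called there, 7 were false calls. Smaller amplitudes, such as those fitted for Clock and Npas2, were not simulated. Alternatives were limma-trend (3.58.1), DESeq2 (1.42.0), other scalings and filters, a replicate block and left-out libraries.

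The members and gene lists were chosen with earlier results of these data known. Named were the 3 members, list genes that passed (or the 3 of lowest p per list) and, for each member, the 5 genes of highest and the 5 of lowest r; some genes that the rule covers are not reported here.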

Additional observations from a re-analysis of the deposited data

How the results depend on the processing

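The 24-h call of Arntl held in every alternative except the one without the muscle-richest library of each time. Without those libraries Arntl had adjusted p-values of 0.0752 (24-h) and 0.0919 (any difference), log2 contrasts of -1.24 (ZT14 against ZT2), 1.22 (ZT20 against ZT8), -1.25 (ZT8 against ZT2) and 1.21 (ZT20 against ZT14) that did not pass, and uncalled values that changed sign (12-h alternation 0.02, ZT14 against ZT8 0.01, ZT2 against ZT20 0.03). Both Arntl ratios were then at 0.0667. This alternative has 8 libraries in place of 12, and the part of muscle in it was not tested. The count of genes passing the 24-h test, 17, was 163 in DESeq2, 4 with the replicate block and 4 without the muscle-richest libraries.

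The Npas2 over Clock ratio had an adjusted exact p of 0.214 when its 24-h amplitude was tested, 0.0572 for CPM plus 0.5 and 0.111 with the replicate block; the cause was not tested.

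Leaving out 1 library at a time moved the adjusted p of the Arntl 24-h component between 0.000334 and 0.00333, the log2 difference of Arntl between 1.08 and 1.26 for ZT20 against ZT8, between -1.22 and -1.05 for ZT8 against ZT2 and between -0.12 and 0.03 for ZT2 against ZT20. For Clock it moved between -0.21 and 0.01 for ZT14 against ZT2, between -0.12 and 0 for ZT20 against ZT8 and between -0.02 and 0.07 for ZT14 against ZT8, and for Npas2 between -0.09 and 0.02 for ZT2 against ZT20; none of these was called. The adjusted p of Arntl2 lay between 0.971 and 1, the Npas2 over Clock p between 0.00468 and 0.132, and the count of genes between 5 and 17.

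With the replicate number as a block, the adjusted p of the Arntl 24-h component was 0.000685. Of 18 pairs of same-numbered libraries, 0 had a correlation of deviations over 0.1 (median 0.0127), beside 1 of 36 pairs of other numbers (median 0.00593). These correlations gave no sign that the numbers pair the libraries, but they cannot exclude it. Among single genes the block ended the calls of Per2, Per3, Ciart, Nr1d1, Dbp and Tef.

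At this depth and spread, the 6 contrasts of Npas2 had intervals from -0.45 to 0.5 in all, and edgeR called 0 of them after adjustment over all genes. The unadjusted intervals of ZT20 against ZT14 (0.1 to 0.5) and of ZT14 against ZT2 (-0.45 to -0.04) excluded 0. Changes within the outer bounds were not excluded.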
